A study of Mus musculus with 8 samples.

Results

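The genes described here are the Zbtb genes, taken as all protein-coding genes of the RefSeq table of mouse build GRCm38.p6 whose symbol begins with Zbtb and a digit. This gave 41 of 21900 genes. A peak belonged to a Zbtb gene when its centre lay inside the gene or, where it lay in no protein-coding gene, when that gene had the nearest end. Of the 31473 peaks listed in cDC1, 90 met this rule, and of the 2776 listed in cDC2, 11 did. One member, Zbtb8os, carries the symbol but encodes archease, a factor of tRNA ligation, and no BTB zinc finger protein.

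The peaks came from CUT&Tag, in which an antibody directs a transposase to a bound protein, here DC-SCRIPT, the zinc finger protein encoded by Zfp366. Conventional dendritic cells were sorted from spleens of female C57BL/6 mice, as cDC1, known for cross-presentation, and as cDC2, known for priming CD4 T cells. The 8 libraries, each from a pool of mice, were 2 of zfp366-/- and 3 of zfp366+/+ (wild-type) cDC1, and 2 of zfp366-/- and 1 of wild-type cDC2. No source used here gives the age of the mice or the deleted stretch of Zfp366. The lists hold binding and no expression, so the identity of the sorted cells was not checked. Each list rests on 1 set of knockout tags and 1 set of wild-type tags, and the headers do not say which libraries went into a set. The sets held 12.1 M and 35.5 M tags in cDC1 and 6.83 M and 4.77 M tags in cDC2. Values are given as normalised tags, which are a peak's tags per 10000000 tags of the set. A fold is wild-type over knockout tags at equal depth. Folds and scores are the authors' own, and a peak had to reach a fold of at least 4 to be listed. Intervals around folds are exact 95% intervals computed here from the tags. They cover counting error only, since no value per library was used and no spread between mouse pools can be given.

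Zbtb proteins pair through an amino-terminal BTB domain, which also recruits corepressors, and bind DNA through carboxy-terminal zinc fingers. Most are known as repressors, and several direct the choice between blood cell lineages. Zbtb46 is expressed in conventional dendritic cells and their committed precursors and is widely used to mark this lineage.

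The 250 bases before the start are shown for the 4 members whose cDC1 peaks scored highest among those centred outside the gene and over its own promoter window, since these peaks cover sequence just before a start. A promoter window is the stretch from 250 bases before to 50 bases after a start. The sequences are RefSeq's, of build GRCm38.p6, written 5′ to 3′ on the strand of the gene, with the bases inside the cDC1 peak in capitals. They lie at chr19:8802263-8802512 (plus strand) for Zbtb3, chr4:45012413-45012662 (minus strand) for Zbtb5, chr17:33915926-33916175 (plus strand) for Zbtb22 and chr1:177442101-177442350 (plus strand) for Zbtb18.
Zbtb3: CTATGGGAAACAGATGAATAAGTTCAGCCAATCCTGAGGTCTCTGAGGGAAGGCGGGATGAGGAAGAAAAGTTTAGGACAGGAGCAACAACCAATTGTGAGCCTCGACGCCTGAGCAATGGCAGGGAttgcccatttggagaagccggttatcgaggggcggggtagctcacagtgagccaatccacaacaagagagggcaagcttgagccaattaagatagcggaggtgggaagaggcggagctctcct
Zbtb5: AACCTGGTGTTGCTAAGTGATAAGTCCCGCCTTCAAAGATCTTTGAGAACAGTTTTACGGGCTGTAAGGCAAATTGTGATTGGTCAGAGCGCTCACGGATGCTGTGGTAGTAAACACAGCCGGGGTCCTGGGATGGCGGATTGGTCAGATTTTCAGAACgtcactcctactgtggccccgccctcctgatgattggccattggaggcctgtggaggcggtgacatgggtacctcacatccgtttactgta
Zbtb22: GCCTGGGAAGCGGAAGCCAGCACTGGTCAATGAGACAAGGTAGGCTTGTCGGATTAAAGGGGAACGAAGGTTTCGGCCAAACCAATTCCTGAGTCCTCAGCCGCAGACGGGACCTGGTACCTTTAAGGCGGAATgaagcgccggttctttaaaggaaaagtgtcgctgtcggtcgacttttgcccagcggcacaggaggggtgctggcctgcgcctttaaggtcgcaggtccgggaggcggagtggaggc
Zbtb18: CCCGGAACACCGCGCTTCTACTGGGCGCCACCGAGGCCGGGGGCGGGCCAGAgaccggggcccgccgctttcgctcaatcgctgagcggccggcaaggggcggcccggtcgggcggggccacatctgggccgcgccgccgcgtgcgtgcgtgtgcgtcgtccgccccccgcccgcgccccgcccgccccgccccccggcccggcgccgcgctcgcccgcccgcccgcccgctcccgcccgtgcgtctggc
The peak covered 127 of the 250 bases at Zbtb3, 159 at Zbtb5, 134 at Zbtb22 and 52 at Zbtb18. In the stretches of Zbtb3, Zbtb5 and Zbtb22 the covered part held the letters CCAAT on one strand or the other. At Zbtb3 they began 223 and 160 bases before the start, at Zbtb5 172 and 111 bases before it, and at Zbtb22 169 bases before it. CCAAT also stood outside the covered part, 72 and 41 bases before the start at Zbtb3 and 59 and 52 bases before it at Zbtb5. The Zbtb18 stretch held no CCAAT and 12 copies of GGGCGG, 1 of them in the covered part.

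In cDC1, 34 of the 41 Zbtb genes had at least 1 peak, which is 82.9%, against 51.3% of all protein-coding genes. In cDC2 the count was 8 of 41, or 19.5%, against 9.53% of all genes. Both shares lay above that of all genes, and no test of the difference was made. The share depends on the limits. With a fold of at least 8 required, 19 Zbtb genes, or 46.3%, had a cDC1 peak, against 38.5% of all genes, and 6, or 14.6%, had a cDC2 peak, against 5.01%. With peaks over 10 kb from the gene left out, 34 Zbtb genes, or 82.9%, had a cDC1 peak, against 47.8% of all genes, and 5, or 12.2%, had a cDC2 peak, against 7.5%. With the upper 50% of each list by score, 25 Zbtb genes, or 61.0%, had a cDC1 peak, against 34.8% of all genes, and 3, or 7.32%, had a cDC2 peak, against 4.86%. Wild-type levels at the Zbtb peaks were close to those of the whole lists. The median was 1.65 normalised knockout tags and 16.8 normalised wild-type tags at the Zbtb peaks of cDC1, and 1.65 knockout and 15.5 wild-type tags over all cDC1 peaks, and the median fold was 9.76 at Zbtb peaks and 10.2 over all peaks. In cDC2 the medians were 2.93 knockout and 24.1 wild-type tags at Zbtb peaks, and 3.66 knockout and 24.1 wild-type tags over all peaks. The median fold there was 9.53 at the 11 Zbtb peaks and 7.42 over all peaks. Depth limits single folds: 67 of the 90 cDC1 peaks and 7 of the 11 cDC2 peaks had 3 or fewer knockout tags, and the lower limit of the fold lay above 4 at 23 of the 90 and 1 of the 11. These counts were not made over all peaks, so they do not set Zbtb peaks apart.

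**Figure D1:**
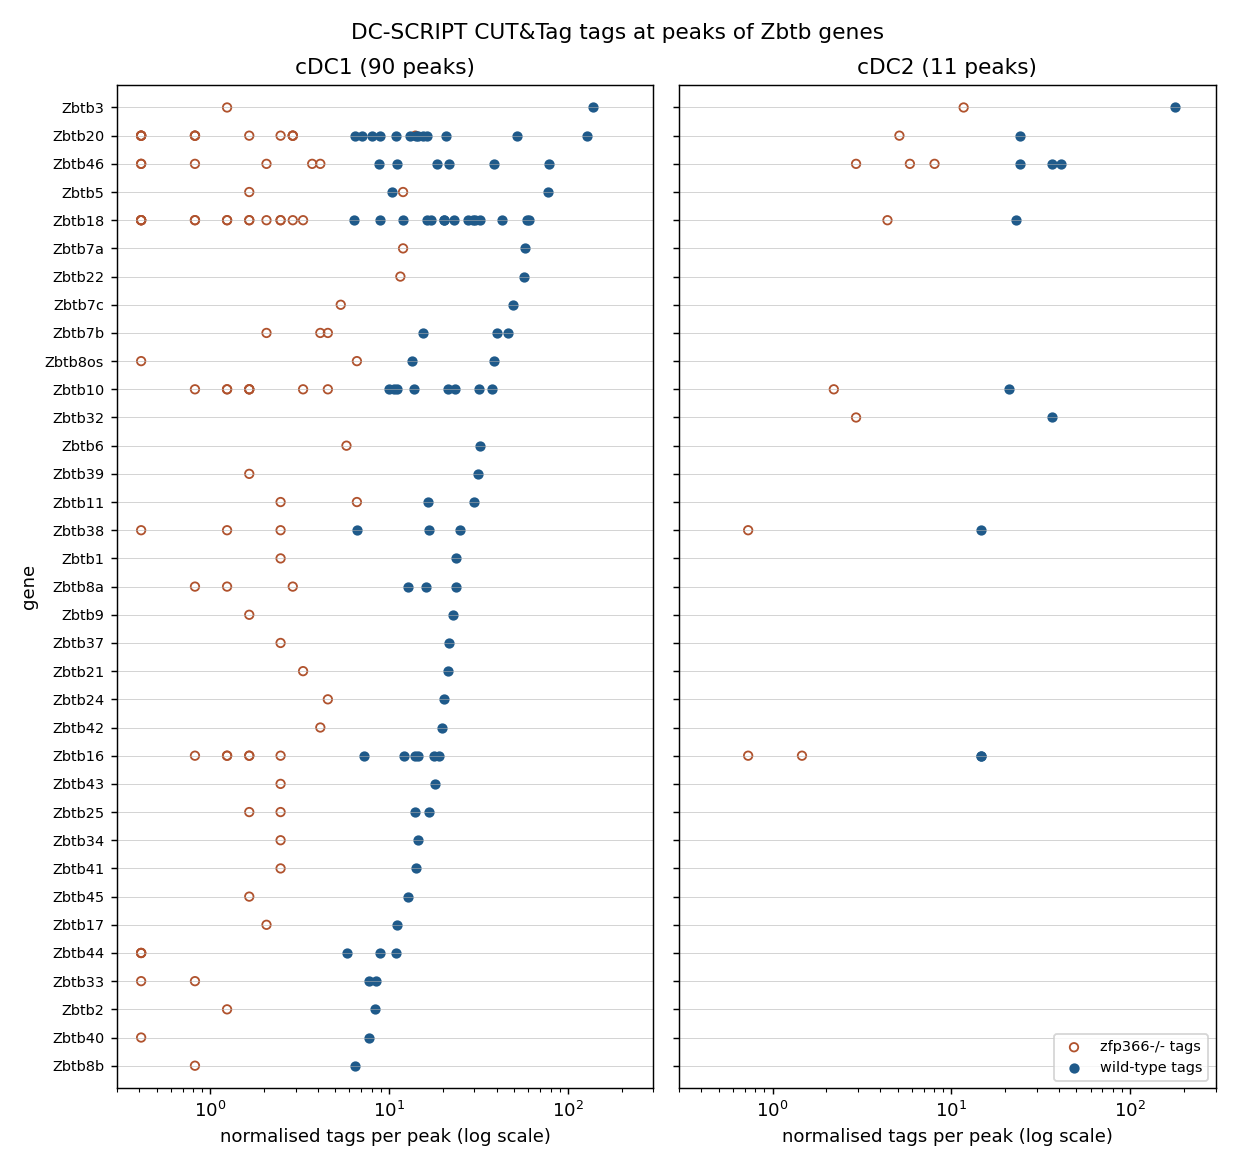
Normalised tags (log axis) in zfp366-/- (open circles) and wild-type cells (filled circles) at every peak of the 35 Zbtb genes with a peak in either list, with cDC1 on the left and cDC2 on the right. Genes are ordered by their highest wild-type value, from Zbtb3 at 138.0 tags in cDC1 and 178.0 in cDC2 down to Zbtb8b at 6.48 tags in cDC1. The lowest knockout value drawn, 0.41 in cDC1 and 0.73 in cDC2, also stands for no tag.

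The strongest peak of the family lay at Zbtb3, on chromosome 19 from 8802489 to 8804853. In cDC1 the peak at chr19:8802199-8802389, centred 219 bases upstream of the listed start, held 1.24 normalised tags in knockout cells and 138.0 in wild-type cells. Its fold was 112 (95% interval 23.1 to 695.0), and its score of 192 ranked 55 of all 31473 cDC1 peaks. In cDC2 a peak lay at chr19:8802200-8802390, shifted by 1 base. It held 11.7 normalised tags in knockout cells and 178.0 in wild-type cells, with a fold of 15.3 (95% interval 7.47 to 36.8) and rank 4 of 2776. The same promoter was thus near the top of both lists. The knockout level at this site was higher in cDC2, at 8 tags of 6.83 M, than in cDC1, at 1.5 tags of 12.1 M. Zbtb3 had no other peak, and the next gene, Polr2g, lay 3.74 kb from the centre of the cDC1 peak.

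Zbtb46, on chromosome 2 from 181371009 to 181493262 on the minus strand, carried 6 cDC1 peaks, all inside the longest gene model, and 3 cDC2 peaks. The strongest cDC1 peak, at chr2:181436331-181436521, lay 12038 bases upstream of the listed start and held 4.12 normalised tags in knockout cells and 78.7 in wild-type cells, with a fold of 19.2 (95% interval 8.13 to 59.6). A further cDC1 peak stood 68.1 kb upstream of that start, at chr2:181492352-181492542. It lay inside the gene model near its upper end, which is the 5′ end of Zbtb46 on the minus strand. Its centre was also 759 bases from a listed start of another gene. There the knockout tags were at the lowest value listed, 0.41 normalised tags, against 38.5 in wild-type cells, and the lower limit of the fold was 12.6. Of the other peaks, 3 lay between 51.0 and 59.4 kb upstream, with 0.82 to 3.71 knockout tags and 11.1 to 21.6 wild-type tags. The last, 47.0 kb downstream of the start with 0.41 knockout and 8.74 wild-type tags, was also centred inside the neighbouring gene Zgpat. No Zbtb46 peak lay over the listed promoter.

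In cDC2, the highest Zbtb46 peak was at chr2:181483616-181483806 and held 8.05 normalised tags in knockout cells and 40.8 in wild-type cells, with a fold of 5.07 (95% interval 1.85 to 14.5). The cDC1 peak it overlapped, by 163 bases, held 2.06 knockout and 18.6 wild-type tags. The second, at chr2:181436518-181436708, held 5.86 tags in knockout cells and 36.7 in wild-type cells, with a fold of 6.25 (95% interval 2.12 to 26.2). It overlapped the strongest cDC1 peak by 4 bases only. The third, at chr2:181438382-181438572, held 2.93 tags in knockout cells and 24.1 in wild-type cells, with a fold of 8.22 (95% interval 1.91 to 79.0), and its nearest cDC1 peak centre was 2.05 kb away. By value, the region 12 kb upstream was highest in cDC1 and the region 59 kb upstream was highest in cDC2. In cDC2 the peaks at 59 kb and 12 kb held 19.5 and 17.5 wild-type tags before scaling, too close to rank these sites. The difference between the subsets was not tested.

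**Figure D2:**
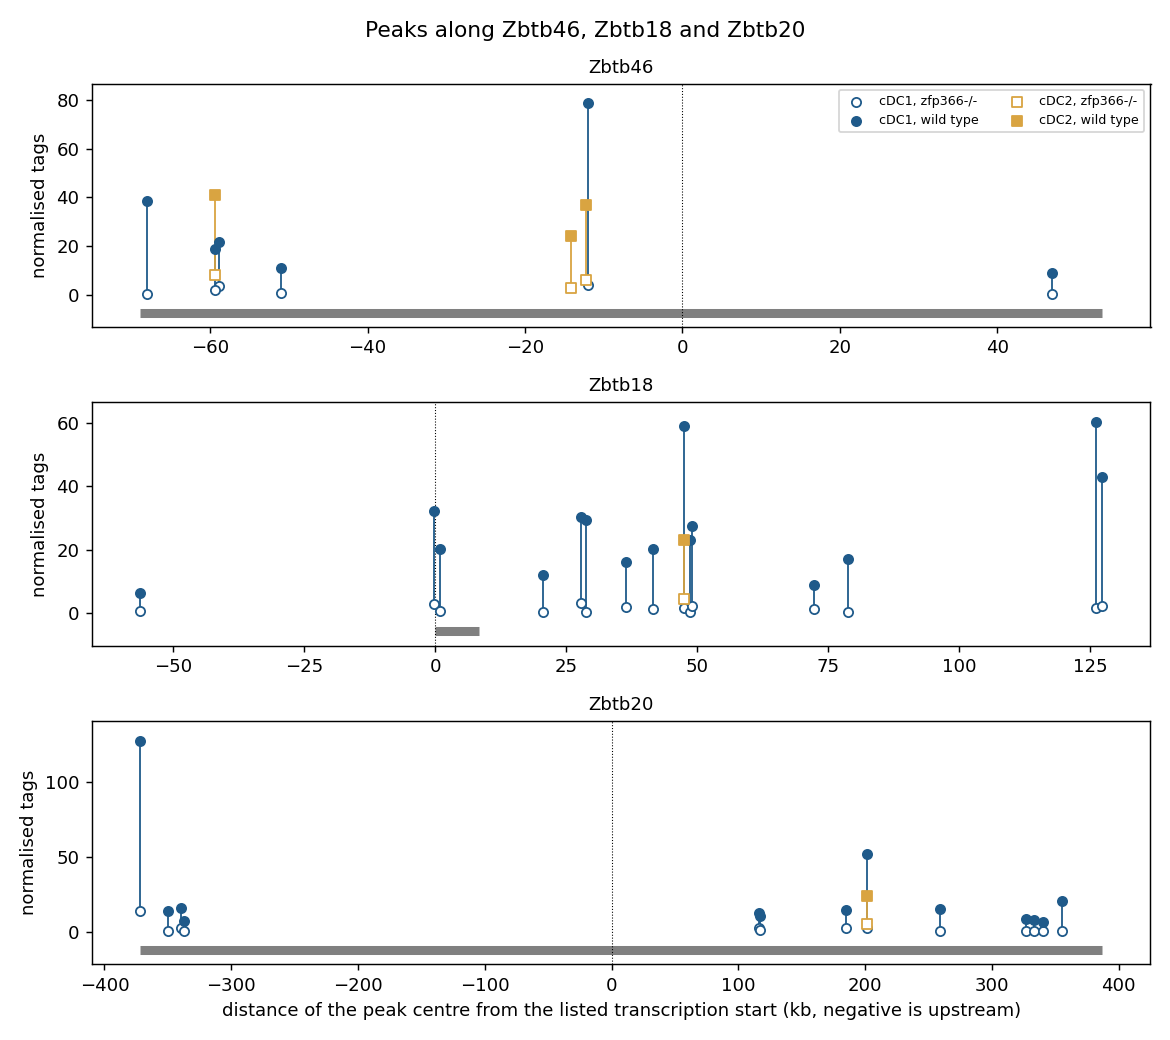
Peaks assigned to Zbtb46, Zbtb18 and Zbtb20, placed by the distance of their centre from the most upstream listed start in kb along the direction of transcription. Open symbols are normalised tags in zfp366-/- cells and filled symbols those in wild-type cells, joined by a line, with cDC1 as circles and cDC2 as squares, and the grey bar is the gene. The peaks of Zbtb46 and Zbtb20 lie along the gene, while 14 of the 15 cDC1 peaks of Zbtb18 lie outside its short body.

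Among the other lymphoid and myeloid factors, Zbtb20 carried 13 cDC1 peaks. Zbtb20 supports plasma cell survival and hippocampal development. It is a long gene of 759 kb on chromosome 16. Its strongest peak, at chr16:42875489-42875679, lay 105 bases beyond the lower end of the gene, which is on the plus strand. It held 14.0 normalised tags in knockout cells and 127.3 in wild-type cells, with a fold of 9.10 (95% interval 5.63 to 15.8). That was the highest knockout level of all Zbtb peaks in cDC1. A peak inside the gene, at chr16:43448560-43448750, held 2.89 tags in knockout cells and 51.9 in wild-type cells, with a fold of 18.6 (95% interval 6.27 to 60.5), and it was the one Zbtb20 site with a cDC2 peak, which held 5.12 knockout and 24.1 wild-type tags. The other 11 held 6.48 to 20.7 wild-type tags, and 4 of the 13 had knockout tags at the lowest value.

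Zbtb7b, also called ThPOK, directs thymocytes to the CD4 lineage. It had 3 cDC1 peaks, all inside the gene. The highest, at chr3:89393523-89393713 and 240 bases upstream of a listed start, held 4.54 normalised tags in knockout cells and 46.1 in wild-type cells, with a fold of 10.2 (95% interval 4.2 to 25.8). A second stood 1.42 kb upstream of the other listed start, with 4.12 knockout and 40.2 wild-type tags. Zbtb7a, which acts in erythroid maturation and in the choice between B and T cells, had 1 peak, 1.19 kb downstream of its start, with 11.96 tags in knockout cells and 57.4 in wild-type cells. Its fold of 4.80 (95% interval 2.75 to 8.46) was close to the limit for listing.

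Zbtb16, or PLZF, the factor of natural killer T cells, had 6 cDC1 peaks inside its 184 kb, none strong, with 0.82 to 2.47 knockout tags and 7.19 to 18.9 wild-type tags. In cDC2 it had 2 peaks of 14.7 wild-type tags each, which is 7 tags, with 0.73 and 1.46 knockout tags. The first of these had no overlapping cDC1 peak, and the second overlapped a cDC1 peak of 17.9 tags. Both peaks of that shared site were centred in Gm32280 as well. Zbtb1, needed for lymphoid development, had 1 peak 171 bases upstream of its start, with 2.47 knockout and 23.7 wild-type tags. Zbtb17, or Miz-1, a partner of Myc, had 1 peak of 2.06 knockout and 11.0 wild-type tags, which was also centred in Gm42337. Zbtb25 had 2 peaks of 2.47 and 1.65 knockout tags and 14.0 and 16.8 wild-type tags. Zbtb32, which restrains lymphocyte responses, was the one member with a peak in cDC2 and none in cDC1. This peak, at chr7:30592689-30592879 and 158 bases downstream of a listed start, held 2.93 normalised tags in knockout cells and 36.7 in wild-type cells, with a fold of 12.5 (95% interval 3.08 to 114.0). The nearest cDC1 peak centre lay 3.69 kb away, and 0.589 kb from the Zbtb32 gene. That cDC1 peak held 29.5 wild-type tags and was assigned to Kmt2b. A region missing from a list may have failed any of the authors' limits, so absence from the cDC1 list does not show absence of binding.

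Zbtb18, or RP58, a repressor of neuronal differentiation genes, carried 15 cDC1 peaks, the most of the family, although the gene spans 8.41 kb. Of these, 13 lay over 10 kb outside it. The highest, at chr1:177568522-177568712 and 118.0 kb beyond the upper gene end, held 1.65 normalised tags in knockout cells and 60.3 in wild-type cells, with a fold of 36.6 (95% interval 10 to 304). Next to it, 119.0 kb from the gene, a peak held 2.47 knockout and 42.9 wild-type tags. The peak at chr1:177489801-177489991, 39.1 kb beyond the gene, held 1.65 tags in knockout cells and 59.1 in wild-type cells, with a fold of 35.8 (95% interval 9.81 to 298.0). It was the one Zbtb18 site also listed in cDC2, with 4.39 knockout and 23.0 wild-type tags, for which the fold was 5.24 (95% interval 1.39 to 29.3). At 4 of the 15 sites the knockout tags were at the lowest value, among them one 20.4 kb beyond the gene with 29.5 wild-type tags and a lower limit of the fold of 9.56. The peak over the promoter shown above held 2.89 tags in knockout cells and 32.3 in wild-type cells. The next gene to the highest peak was 1700016C15Rik, 160.0 kb away. Which gene such distal regions act on cannot be told from their position.

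Zbtb10, which binds variant telomere repeats in human cells, showed a like pattern on a smaller scale. Its 8 cDC1 peaks all lay below the gene on chromosome 3, 1 of them 0.554 kb from the gene end and 7 between 51.6 and 122.0 kb away. The farthest was almost as near to Tpd52, at 123.0 kb. The highest held 3.30 normalised tags in knockout cells and 37.5 in wild-type cells, and the one next to the gene held 1.24 knockout and 31.6 wild-type tags, with a fold of 25.5 (95% interval 5.18 to 160.0). The site 70.9 kb away was listed in both subsets, with 1.65 knockout and 13.8 wild-type tags in cDC1, and 2.20 knockout and 20.9 wild-type tags in cDC2. Together Zbtb18, Zbtb20, Zbtb10, Zbtb46 and Zbtb16 held 48 of the 90 cDC1 peaks, or 53.3%. These 5 are the Zbtb genes with 6 or more peaks, 12.2% of the family, against 6.11% of all genes. Zbtb18 and Zbtb10 reach 6 only through distant peaks, with 2 and 1 within 10 kb of the gene. The share of all genes under that limit was not computed. A single peak was found at 20 Zbtb genes, which is 58.8% of those with a peak, against 42.5% of all genes with a peak. At 12 of these 20 it was centred within 1 kb of an annotated start. Of all cDC1 peaks, 17.9% lay that near a start. The share among all genes with a single peak was not computed, so the 12 cannot be set against it.

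**Figure D3:**
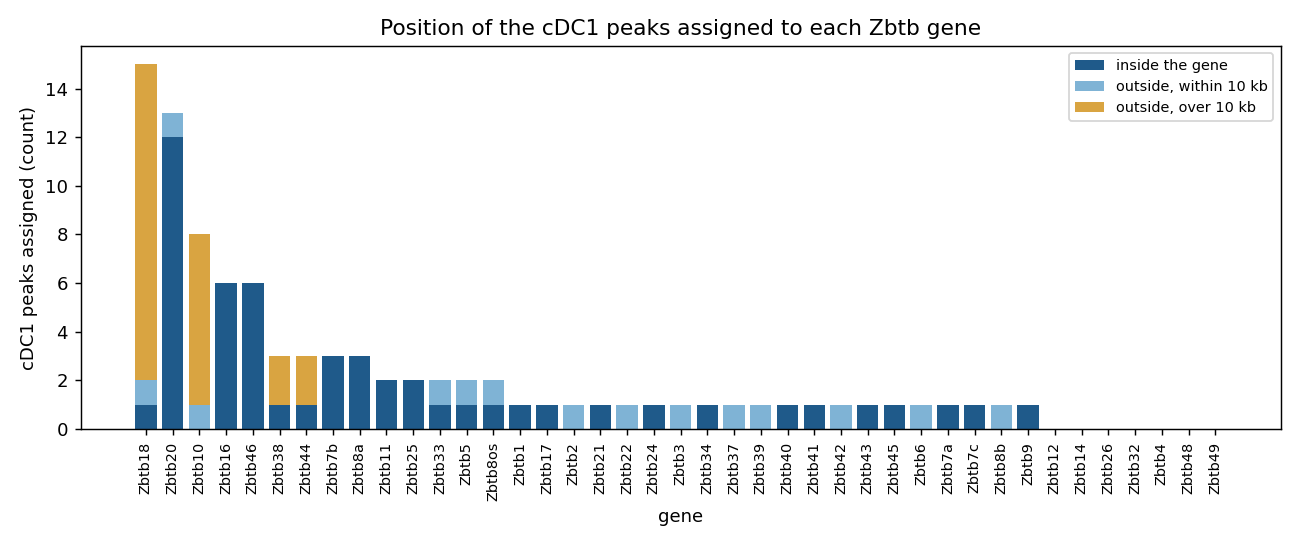
Number of cDC1 peaks assigned to each of the 41 Zbtb genes, split into peaks inside the gene, peaks outside it within 10 kb and peaks over 10 kb away. Zbtb18 with 15 and Zbtb10 with 8 owe most of their peaks to distant regions, Zbtb20 with 13 has 12 inside the gene, and 7 genes have none.

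Of the methyl-CpG binders, Zbtb38 and Zbtb33 had cDC1 peaks and Zbtb4 had none. Zbtb38 carried 3, with 0.41 to 2.47 knockout tags and 6.63 to 24.8 wild-type tags, the highest 12.7 kb below the gene. Its cDC2 peak, 21.3 kb upstream of the start, held 0.73 knockout and 14.7 wild-type tags and overlapped no cDC1 peak. Zbtb33, or Kaiso, carried 2 weak peaks, one 61 bases downstream of its start with 0.82 knockout and 8.46 wild-type tags and one 9.69 kb away with 0.41 knockout and 7.75 wild-type tags. Among the genes of genome maintenance besides Zbtb10, Zbtb24, mutated in a human immunodeficiency syndrome with loss of DNA methylation, had 1 peak 117 bases downstream of its start, with 4.54 knockout and 20.3 wild-type tags and a fold of 4.47, the lowest of the Zbtb peaks in cDC1. Zbtb40 had 1 peak of 0.41 knockout and 7.75 wild-type tags, and the telomere factor Zbtb48 had none. Zbtb45, the other gene of the nervous system group, had 1 peak 98 bases downstream of its start with 1.65 knockout and 12.7 wild-type tags.

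The other 23 members include genes of little known function, and 19 of them had a cDC1 peak, with 26 peaks of 5.78 to 138.0 wild-type tags, where 51.3% of all genes had one. In cDC2, 1 of the 23 had a peak, which is Zbtb3, where 9.53% of all genes had one. After Zbtb3, the promoter peaks of Zbtb5 and Zbtb22 stood out by their wild-type level. That of Zbtb5, at chr4:45012504-45012694, held 11.96 normalised tags in knockout cells and 77.5 in wild-type cells, with a fold of 6.51 (95% interval 3.75 to 11.4). That of Zbtb22, at chr17:33915869-33916059, held 11.5 tags in knockout cells and 56.7 in wild-type cells, with a fold of 5.19 (95% interval 3.03 to 9.67), and its centre lay 0.374 kb from Daxx. Both knockout levels lay above the upper quartile of the Zbtb peaks in cDC1, 2.79 tags. Zbtb7c, 328 kb long, had 1 peak inside the gene where knockout cells had 5.36 and wild-type cells 49.5 tags, for a fold of 9.25 (95% interval 4.08 to 21.7). Zbtb39 had 1 peak 2.38 kb upstream of its start, with 1.65 tags in knockout cells and 31.2 in wild-type cells, and a fold of 19.2 (95% interval 5.22 to 161.0). Zbtb8os had 2 peaks, and the higher, with 6.60 knockout and 38.5 wild-type tags, lay over the promoter window of its neighbour Rbbp4. The highest peaks of Zbtb6, Zbtb11, Zbtb8a, Zbtb9, Zbtb37, Zbtb21, Zbtb42, Zbtb43, Zbtb34, Zbtb41 and Zbtb44 held between 32.4 and 10.9 wild-type tags, and those of Zbtb2 and Zbtb8b 8.32 and 6.48.

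Besides Zbtb32, Zbtb4 and Zbtb48, the members without a cDC1 peak by the rule were Zbtb12, Zbtb14, Zbtb26 and Zbtb49. At Zbtb14 and Zbtb26 the rule hid a peak over the promoter, because its centre lay in or nearer to another gene. The peak over the Zbtb14 window, assigned to Gm49894, held knockout tags at the lowest value and 17.9 wild-type tags, with a lower limit of the fold of 5.76. The peak over the Zbtb26 window, assigned to Rabgap1, held 2.47 knockout and 12.3 wild-type tags. For Zbtb12 the nearest cDC1 peak, of 12.7 wild-type tags, lay 1.51 kb from the gene and was assigned to Ehmt2. For Zbtb4 the nearest cDC1 peak, of 137.0 wild-type tags, lay 7.36 kb from the gene and was assigned to Polr2a. For Zbtb48 and Zbtb49 no cDC1 peak lay closer than 41.7 kb and 40.0 kb.

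Promoter windows were listed for 36 of the 41 Zbtb genes. In cDC1 a peak overlapped a window at 16 of these 36 genes, or 44.4%, against 24.4% of the 17492 protein-coding genes with a window. In cDC2 it did so at 1, which is Zbtb3, against 1.46% of genes. No test of these shares was made. By position, 52 of the 90 cDC1 peaks were centred inside a gene, which is 57.8%, against 56.0% of all cDC1 peaks. Within 1 kb of a gene end lay 23, or 25.6%, against 20.8% of all peaks. This difference was not tested, since many of the 90 peaks lie at the same few genes. The 21 Zbtb peaks within 1 kb of an annotated start had a median of 2.47 knockout and 22.8 wild-type normalised tags and a median fold of 7.69, and the other 69 had 1.65 knockout and 15.5 wild-type tags and a median fold of 11.1. Over all cDC1 peaks the medians were 2.47 knockout and 20.3 wild-type tags with a fold of 7.86 near starts, and 1.65 knockout and 14.5 wild-type tags with a fold of 10.8 away from them, which is the same order.

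The whole windows were searched on both strands for short motifs. A window counted as having a peak from 1 base of overlap, so a motif counted here may lie outside the peak. The ETS-type letters GGAAGT stood in 9 of the 17 Zbtb windows with a cDC1 peak, or 52.9%, against 35.6% of the 4655 windows with a cDC1 peak and 24.8% of all 21263 windows. CCAAT stood in 9 of the 17, from 8 genes since Zbtb3 has more than 1 window, against 44.0% and 38.2%. Over all 49 Zbtb windows, with or without a peak, CCAAT stood in 15, or 30.6%, which is below the 38.2% of all windows, and GGAAGT also in 15, against 24.8%. The GC box GGGCGG stood in 13 of the 17, or 76.5%, from 12 genes, against 68.7% and 46.2%. Over all 49 Zbtb windows it stood in 33, or 67.3%, which is also above the 46.2% of all windows. The ETS-IRF composite element, bound by PU.1 with IRF factors, stood in 3 of the 17, or 17.6%, against 2.99% and 2.53%. These were at Zbtb7b, Zbtb11 and Zbtb37, and over all 49 Zbtb windows the share was 6.12%. The longer PU.1 letters GAGGAAGT and the AP-1 letters TGACTCA were in none of the 17, against 5.03% and 3.24% of the windows with a peak and 3.13% and 4.66% of all windows. The letters TCCTGCNA, known as a site of Kaiso, were in 1, at Zbtb37, or 5.88%, against 4.19% and 4.74%. Over all 49 Zbtb windows these letters stood in 4, or 8.16%, which is above the 4.74% of all windows. GGAAGT occurs within GAGGAAGT, and with 17 windows each count carries a wide error.

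The subsets were compared at the sites listed in both. Of the 11 cDC2 peaks at Zbtb genes, 7 overlapped a cDC1 peak by at least 1 base, which is 63.6% of the cDC2 peaks and 7.78% of the 90 cDC1 peaks, against 63.7% and 5.61% over all peaks. With at least 50% of the shorter peak required, 6 did, since the Zbtb46 pair that shared 4 bases was lost. At these 7 sites the knockout level was 1.24 to 4.12 normalised tags in cDC1 and 1.46 to 11.7 in cDC2. By value, the fold was higher in cDC1 at 6 of 7. The exception was Zbtb10, with folds of 8.37 in cDC1 and 9.53 in cDC2. The 95% intervals of the fold overlapped between the subsets at all 7. At Zbtb3 they were 23.1 to 695.0 in cDC1 and 7.47 to 36.8 in cDC2. Over all listed peaks, shared or not, the knockout median was lower in cDC1, at 1.65 against 3.66 normalised tags. The median of the folds was higher there, at 10.2 against 7.42. The share of all shared sites with the higher fold in cDC1 was not computed, so the 6 of 7 cannot be set against it. Wild-type tags were higher in cDC2 at Zbtb3, Zbtb10 and the Zbtb46 region 59 kb upstream, and lower in cDC2 at Zbtb16, Zbtb18, Zbtb20 and the Zbtb46 region 12 kb upstream. The peaks at the region 12 kb upstream shared 4 bases only, so their values come from mostly different sequence. At Zbtb16 and Zbtb10 the cDC2 values rest on 7 and 10 tags, too few to rank the subsets. The lowest wild-type value of any cDC2 peak was 12.6 normalised tags, and 26 of the 90 cDC1 peaks lay below it, so that these could not be compared. A single wild-type library was labelled for cDC2, and a difference between subsets was not tested.

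**Figure D4:**
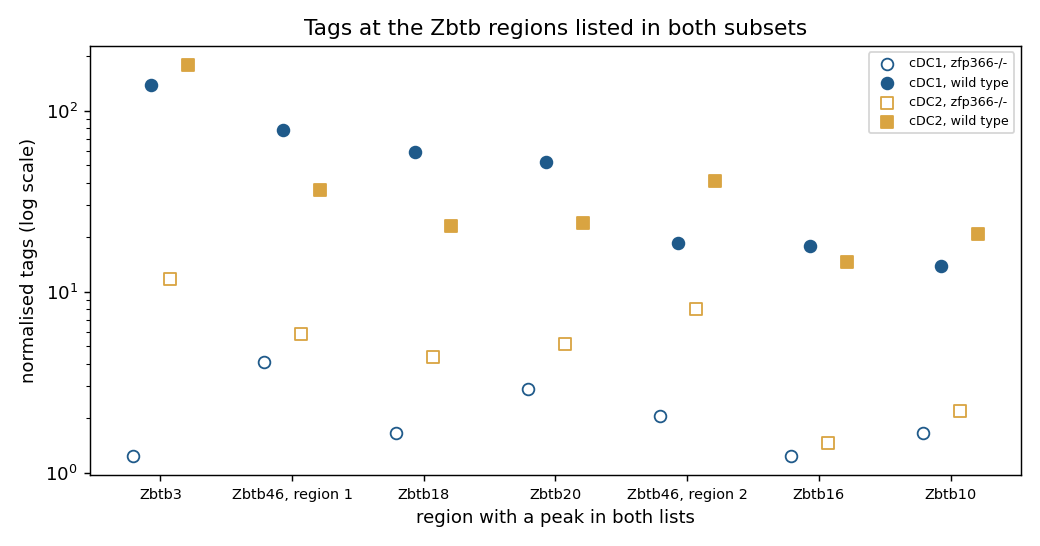
Normalised tags (log axis) at the 7 Zbtb regions with a peak in both lists, ordered by wild-type tags in cDC1. Open symbols are zfp366-/- and filled symbols wild-type cells, with cDC1 as circles and cDC2 as squares, and regions 1 and 2 of Zbtb46 are the sites 12 kb and 59 kb upstream. Normalised knockout tags lie higher in cDC2 at all 7, by 1.46 against 1.24 at Zbtb16 and by 11.7 against 1.24 at Zbtb3. Some rest on very few tags before scaling, with 1.0 in cDC2 and 1.5 in cDC1 at Zbtb16, and 1.5 and 2.0 at Zbtb10.

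Genes related to the family were counted for setting. Of 8 BTB zinc finger genes with other names, 7 had a cDC1 peak and 1 a cDC2 peak, where 51.3% and 9.53% of all genes did. The highest was at Bcl6, a repressor needed for germinal centre B cells, whose top cDC1 peak held 3.30 normalised tags in knockout cells and 124.9 in wild-type cells. Mynn had 1 cDC1 peak of 7.42 knockout and 64.4 wild-type tags. Both BTB genes of the bZIP class, Bach1 and Bach2, had peaks in both lists, with 34 cDC1 peaks between them. Of 7 genes for partners of BTB domains, 6 had a cDC1 peak and 2 a cDC2 peak, where 51.3% and 9.53% of all genes did. Their cDC1 peaks reached 118.7 wild-type tags. Sin3a, a scaffold of histone deacetylase complexes, had a highest-scoring peak of 13.6 tags in knockout cells and 104.7 in wild-type cells.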

How the data were processed

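The data are 2 lists of DC-SCRIPT CUT&Tag peaks, 1 for cDC1 and 1 for cDC2, each called by HOMER findPeaks in its factor mode on 1 set of wild-type tags, with 1 set of knockout tags as the control, per the file headers. Peaks are 191 bp long, and the headers set the false discovery rate to 0.001 and ask for a fold of at least 4 with a Poisson p-value of at most 0.0001 over knockout and over the surrounding 10 kb. HOMER and the builds GRCm38 and mm10 are named in the submitters' processing notes. No source used here names the aligner. The deposited signal is wild-type tags scaled by the authors to 10000000. The deposited tags behind the fold were scaled by the authors to the knockout depth in cDC1 and to the wild-type depth in cDC2. They were brought back here to steps of 0.5 tag, which returned 100% of the deposited values below 60, and gave the knockout depths. These wild-type tags were 0.996 to 1.06 times those implied by the signal at Zbtb peaks of cDC1 and 0.997 to 1.01 times in cDC2. The deposited score, fold ratio and p-value are the authors', and the deposited focus ratio, a fraction, was not used. A knockout value of 0.5 tag, the lowest, is also used where no tag was seen. There only the lower limit of the fold is given.

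Peaks were assigned with Python 3.11.15 and pandas 2.3.3 to the protein-coding genes of a RefSeq table of GRCm38.p6. A peak inside several genes counted for each of them, which touched 3 cDC1 peaks and 1 cDC2 peak of Zbtb genes. Starts and strands came from a RefSeq promoter table of the same build. Intervals are exact (Clopper-Pearson, scipy 1.17.1), with tags rounded to whole numbers, and they cover counting error only. Assignment and intervals were tested on simulated data. The files hold no value per library, so no test between genotypes or over samples was made.

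Described one by one were Zbtb46, the 10 Zbtb genes with the highest-scoring cDC1 peak, the 5 with most cDC1 peaks and all with a cDC2 peak. Their strongest peaks are given in full and the rest mostly as ranges or counts. Others were named for completeness. The members, role groups, related lists and motifs were chosen with earlier results of these data known.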

Additional observations from a re-analysis of the deposited data

How the results depend on the processing

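Every setting left the Zbtb genes with peaks in both lists. Keeping the upper 50% of peaks by score, 47 cDC1 peaks with a median of 27.5 normalised wild-type tags remained for Zbtb genes, and in cDC2 3 genes with 4 peaks of a median of 38.8, against 24.1 over all 11, 3 of which overlapped a cDC1 peak. With a fold of at least 8, 19 genes had a cDC1 peak, with 56 peaks, and 12 of these were no more than 1 kb from a gene end. In cDC2, 7 peaks remained, and 3 overlapped a cDC1 peak. With peaks over 10 kb from the gene left out, 5 genes had a cDC2 peak. Counting a gene only by a peak over its promoter window, a setting chosen after seeing the data, gave 16 genes in cDC1 and 1 in cDC2. The other settings, among them leaving out Zbtb8os and other definitions of overlap, moved no count by more than 1.5 times. No paired analysis was possible because the lists hold no value per library, and for the same reason no replicate could be left out. Depth limits cDC2 most: 1 wild-type tag there equals 2.09 normalised tags, against 0.282 in cDC1, and 3 knockout tags equal 4.39 and 2.47.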
